A study of Mus musculus with 6 samples.

Results

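Transcripts of 33 genes of glycolysis, of the fate of pyruvate and of the response to low oxygen were followed in cultured mouse cortical neurons. The genes were taken by symbol from a table of 49671 genes, and for Pkm, the pyruvate kinase gene, single transcripts were followed as well. RNA was sequenced from 3 groups of 2 libraries: wild type after 3 days in vitro (DIV3), neurons labelled Ptbp2 KO after 1 day in vitro (DIV1), and wild type at DIV1. All cultures came from C57BL/6 neocortex at embryonic day 14, on 35 mm dishes plated at the same density, and were labelled cortical neurons. All began in a plating medium with 25 mM glucose and 20% horse serum, which was exchanged after 6 hours for Neurobasal with B-27 and GlutaMax. The study set out to follow the days over which a neurite becomes the axon and the part of the splicing regulator PTBP2 in it. The sources used here do not give the kind of Ptbp2 allele, the cells that carried the deletion, or whether the biological replicates of a group came from separate litters. The p-values therefore cover the spread among these libraries and nothing wider.

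Glycolysis splits glucose into pyruvate in the cytosol. Pyruvate is then either reduced to lactate, with lactate carried across the cell membrane by monocarboxylate transporters, or oxidised in mitochondria by the pyruvate dehydrogenase complex, which pyruvate dehydrogenase kinases switch off. Most steps have several isoenzymes with separate genes, and tissues differ in which they use: Hk1 encodes the main hexokinase of brain, while Hk2 is typical of muscle, fat and dividing cells. When oxygen is low, hypoxia-inducible factors (HIFs) escape hydroxylation by the EGLN enzymes and raise the transcription of glucose transporters, glycolytic enzymes and Pdk1. Pyruvate kinase, the last enzyme of glycolysis, is made from Pkm in an M1 form, typical of muscle and mature neurons, and an M2 form, typical of embryonic and dividing cells. The splicing regulators PTBP1, HNRNPA1 and HNRNPA2B1 are known to hold back the M1 exon.

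The M1 and M2 forms of Pkm (chromosome 9, 59656368 to 59679375, GRCm38) are set by a choice between 2 neighbouring exons of 167 bases each. The exons are shown because the 2 transcripts followed below were sorted by this choice. Those transcripts, of 2041 bases for M1 and 2432 for M2, also differ outside the exons. Capitals mark the 64 positions at which the exons differ, which leaves them 61.7% identical, and both are read on the plus strand from the annotated transcripts of GENCODE M21.
M1 exon of Pkm-202, chr9:59675029-59675195: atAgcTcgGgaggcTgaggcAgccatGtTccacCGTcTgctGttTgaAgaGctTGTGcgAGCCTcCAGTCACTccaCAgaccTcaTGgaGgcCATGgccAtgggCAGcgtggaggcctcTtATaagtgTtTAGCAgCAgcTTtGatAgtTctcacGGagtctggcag
M2 exon of Pkm-201, chr9:59675568-59675734: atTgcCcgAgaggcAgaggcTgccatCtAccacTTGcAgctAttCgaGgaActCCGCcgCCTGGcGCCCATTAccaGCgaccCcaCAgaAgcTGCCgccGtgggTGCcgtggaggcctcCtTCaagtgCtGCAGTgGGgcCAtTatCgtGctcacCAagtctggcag

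Library totals lay between 39104879 and 75522198 expected counts, which are read numbers estimated by RSEM. Levels across libraries are given as CPM, counts brought to a common library size with TMM factors, and levels between genes as TPM, which is also scaled to transcript length. Wherever a group has a pair of values they are those of replicates 1 and 2. The libraries labelled Ptbp2 KO stood apart from each other: over the 33 genes, the median gap between replicates was 0.20 on the log2 scale in the KO-labelled pair, against 0.11 in wild type at DIV3 and 0.08 in wild type at DIV1, and the gap was widest in the KO-labelled pair for 26 of the 33. Over all 16847 genes tested, the Spearman correlation of replicate 1 over replicate 2 with transcript length was -0.49 in the KO-labelled pair, 0.29 at DIV3 and 0.25 in wild type at DIV1. Ptbp2 itself had 474 and 514 CPM in the KO-labelled libraries, against 465 and 429 CPM in wild type at DIV1. A whole-gene count does not check the label if the allele lacks only part of the gene, so KO is used here as the label. The isoform test of Ptbp2 in the KO-labelled libraries, with a largest share difference of 31.5 percentage points, did not pass (adjusted p = 0.316, edgeR diffSpliceDGE, with an unadjusted value of 0.0071). Neuronal markers summed to 6459 to 6469 TPM at DIV3, 3333 to 3549 TPM in the KO-labelled libraries and 3726 to 3740 TPM in wild type at DIV1. Radial glia markers were also high, at 3234 to 3252, 2747 to 2765 and 2793 to 2936 TPM in the same groups, so the cultures held progenitor transcripts beside neuronal ones. Between DIV3 and DIV1 in wild type, 2 of 8 radial glia markers rose and 5 fell, 4 of 4 intermediate progenitor, 5 of 6 erythroid and 1 of 6 microglia markers fell, and 3 of 4 oligodendrocyte lineage markers rose. No marker passed in the KO-labelled libraries, though some sums did not overlap with wild type at DIV1: erythroid markers at 77.7 to 91.4 TPM against 40.7 to 64.5 TPM, intermediate progenitor markers at 388 to 445 TPM against 468 to 486 TPM, and oligodendrocyte lineage markers at 1.07 to 1.10 TPM against 2.29 to 2.57 TPM.

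All 33 genes were detected in all 6 libraries, and all passed the filter on low counts. Per length, Gapdh, the dehydrogenase in the middle of glycolysis, was the most abundant of the 33 in each group, with mean levels of 996 TPM at DIV3, 1580.1 TPM in the KO-labelled libraries and 1289 TPM in wild type at DIV1. Pkm came next, with 875, 1032 and 989 TPM in the same groups. Slc16a3, the lactate exporter MCT4, was the least abundant in each, at 1.71, 1.48 and 1.796 TPM. Between these ends the order shifted in some places: Hk1 stood at rank 12 at DIV3, 15 in the KO-labelled libraries and 14 in wild type at DIV1, while Hk2 stood at rank 32 at DIV3, against 26 and 28. Ldha stood at rank 3 at DIV3, against 7 in the KO-labelled libraries and 6 in wild type at DIV1. Many neighbours in this order differed by little, such as Eno1, Aldoc, Ldha and Aldoa in wild type at DIV1, which had means of 299.96, 299.04, 293 and 288 TPM.

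**Figure D1:**
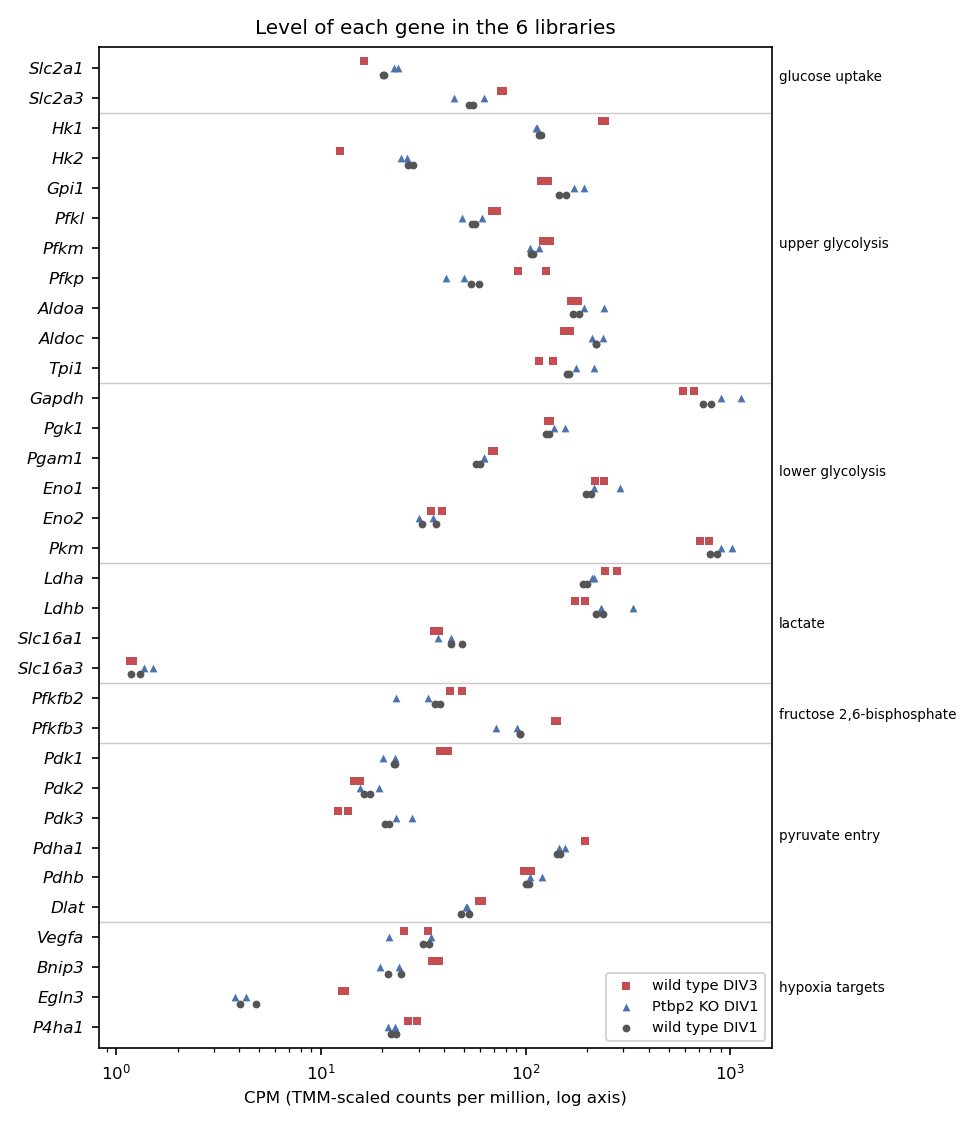
Level of each of the 33 genes in each of the 6 libraries, as CPM on a log axis, with the genes ordered by role. Squares are wild type at DIV3, triangles the libraries labelled Ptbp2 KO at DIV1 and circles wild type at DIV1; Hk1, Pfkp, Pdk1, Pfkfb3 and Egln3 have both squares to the right of all other points, and Hk2 and Pdk3 have both to the left.

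The first comparison asked which of these genes changed in wild-type neurons between DIV1 and DIV3. Of 11 isoenzyme pairs, 5 had fold changes of opposite sign and 6 of the same sign. In 3 of the 5 both members were called, namely Hk1 and Hk2, Slc2a3 and Slc2a1, and Pdk1 and Pdk3. The calls on Slc2a3 and Slc2a1 lay near the threshold (adjusted p = 0.0368 and 0.0378, edgeR). The share of such pairs among other genes was not computed, so these counts do not set the 11 pairs apart. In all, 11 of the 33 genes rose at DIV3, 5 fell, and 17 did not pass the test (adjusted p under 0.05, edgeR quasi-likelihood F test, Benjamini-Hochberg over all genes tested). These are 33.3% and 15.2% of the 33, while over all genes tested 19.8% rose and 16.4% fell. Both DIV3 libraries lay above both DIV1 libraries for 16 of the 33 genes (37.3% of all genes tested) and below them for 11 (38.9% of all genes tested). The median log2 fold change was 0.11 over the 33 genes and -0.02 over all genes tested. With library totals in place of TMM factors, the median over all genes was -0.13, the split of all genes was 2563 higher against 3996 lower in place of 3328 against 2760, and the split of the 33 was 8 against 8, with Pgam1, Slc2a3 and Dlat lost and Tpi1, Gapdh and Slc16a1 called lower. With 1 library left out, 8 and 5 of the 33 genes were called without wild-type DIV1 replicates 1 and 2, 9 without either DIV3 library, and 25 without either KO-labelled library. Hk1, Hk2, Pfkp, Pdk1 and Egln3 were called in the same direction under all 15 alternative settings, which include leaving out each library.

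**Figure D2:**
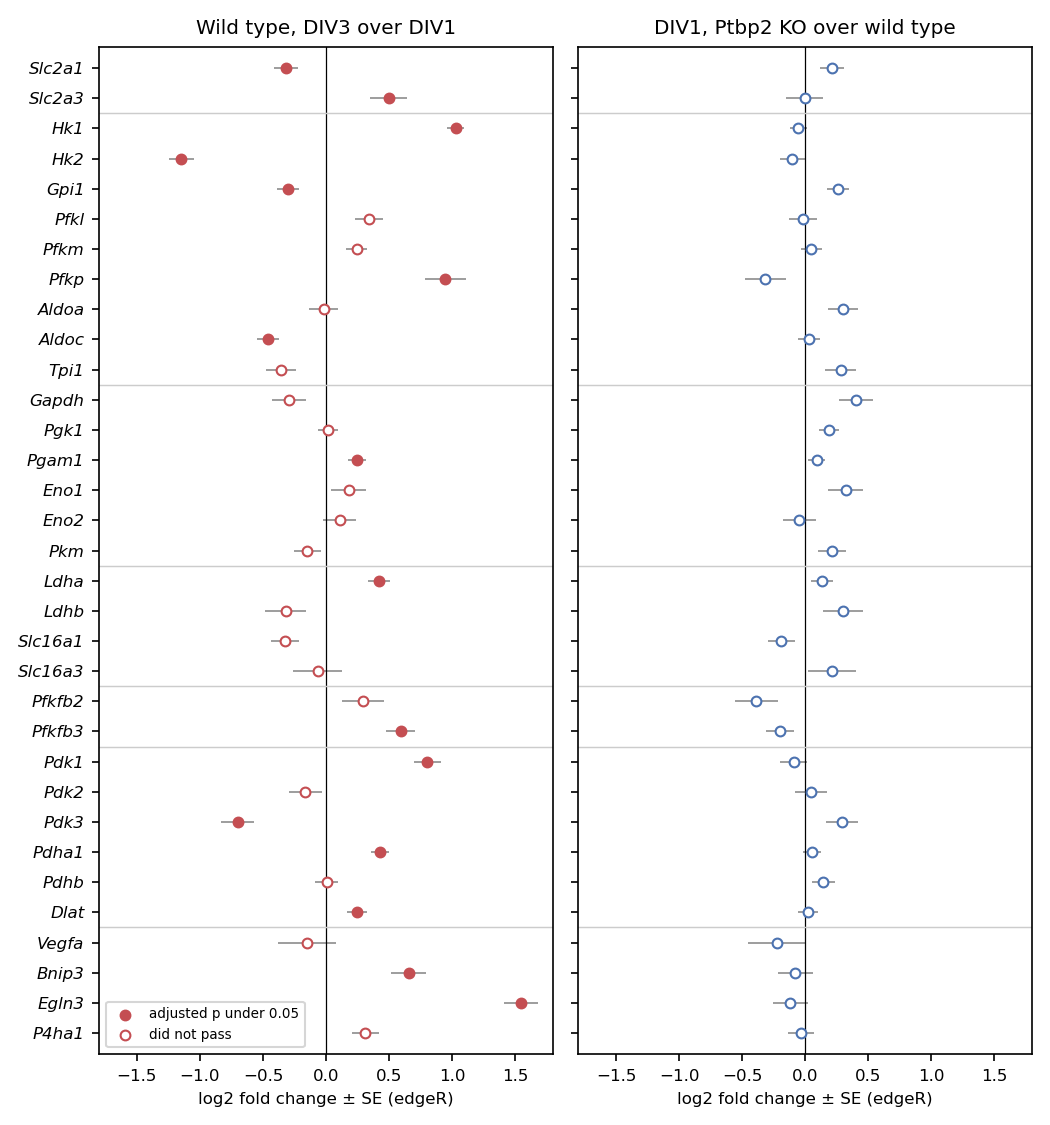
Log2 fold change of each of the 33 genes with its SE, for wild type at DIV3 over wild type at DIV1 (left) and for libraries labelled Ptbp2 KO over wild type at DIV1 (right). Filled points passed an adjusted p of 0.05 and open points did not; the filled points run between -1.15 for Hk2 and 1.55 for Egln3, and all points on the right are open.

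The largest opposite changes were in the hexokinases, which trap glucose in the cell as glucose 6-phosphate. Hk1 (chromosome 10, 62268855 to 62379908), the brain form, had 236 and 245 CPM at DIV3, against 117 and 119 CPM in wild type at DIV1. Hk2 (chromosome 6, 82725025 to 82774454), the form of dividing and insulin-responsive cells, had 12.4 CPM in both DIV3 libraries, against 28.1 and 26.8 CPM at DIV1. The groups did not overlap for either gene, and the replicates of a group lay close together. Hk1 rose 2.04-fold (log2 fold change 1.03 ± 0.07 SE, adjusted p = 0.000158, edgeR), and Hk2 fell to 0.451 of its DIV1 level (-1.15 ± 0.10, adjusted p = 0.000345, edgeR). In cultures of mixed cells, fewer cells of a type and less RNA per cell cannot be told apart. Markers of dividing cells moved at the same time: all 6 cell cycle genes fell, with summed levels of 385 to 387 TPM at DIV3 against 861 to 882 TPM at DIV1, and their part in the fall of Hk2 was not tested.

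Gene counts of the glucose transporters also moved apart. Slc2a3 (chromosome 6), which encodes the neuronal glucose transporter GLUT3, had 77.2 and 75.7 CPM at DIV3, against 53.1 and 55.1 CPM at DIV1. Slc2a1 (chromosome 4), which encodes GLUT1, the transporter of glia and of the blood-brain barrier, had 16.2 CPM in both DIV3 libraries, against 20.3 and 20.0 CPM at DIV1. Slc2a3 rose 1.41-fold (log2 fold change 0.50 ± 0.15 SE, adjusted p = 0.0368, edgeR) and Slc2a1 fell to 0.803 of its DIV1 level (-0.32 ± 0.09, adjusted p = 0.0378, edgeR), with no overlap between groups. Both calls were lost when any 1 of the 4 wild-type libraries was left out: over the libraries left out in turn, the adjusted p of Slc2a3 ran between 0.000134 and 0.172 and that of Slc2a1 between 0.00754 and 0.196. Slc2a1-204, a transcript annotated for nonsense-mediated decay, held 19.3% and 31.0% of Slc2a1 counts at DIV3, against 38.5% and 35.8% at DIV1. The coding Slc2a1-201 held 70.9% and 61.1%, against 54.0% and 54.8%. The isoform test of Slc2a1 did not pass. The fall of Slc2a1 is one of the whole-gene count. These counts and shares do not show it for the coding transcripts, which were not tested alone. Of 6 endothelial markers, Cldn5, Pecam1, Kdr, Tek and Cdh5 were under 0.5 TPM in every library.

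In the upper part of glycolysis, up to the split into triose phosphates, Pfkp rose and Gpi1 and Aldoc fell besides the hexokinases. Pfkp (chromosome 13), the platelet-type subunit of phosphofructokinase, the committed step of the pathway, had 126 and 92.1 CPM at DIV3, against 54.3 and 58.9 CPM at DIV1. On the log2 scale its DIV3 libraries differed by more than those of any other of the 33 genes, yet both exceeded both DIV1 libraries. Its gene count rose 1.93-fold (log2 fold change 0.95 ± 0.16 SE, adjusted p = 0.00485, edgeR). Pfkp-212, annotated as retaining an intron, held 56.3% and 43.6% of that count at DIV3, against 48.1% and 37.6% at DIV1. Pfkp-202, with the same annotation, held 16.7% and 19.3%, against 20.1% and 23.7%. A rise of the coding transcripts of Pfkp alone was not tested. The other phosphofructokinase subunits were at 68.5 and 72.1 CPM at DIV3 against 54.7 and 56.4 CPM at DIV1 for the liver type Pfkl (0.34 ± 0.11, adjusted p = 0.0518, edgeR). The muscle type Pfkm was at 122 and 132 CPM against 106 and 108 CPM (0.24 ± 0.08, adjusted p = 0.0585, edgeR). Neither passed, though the groups did not overlap for either. Aldoc (chromosome 11), the aldolase of brain and in the adult mainly of astrocytes, had 154 and 166 CPM at DIV3, against 220.1 and 220.0 CPM at DIV1, and fell to 0.726 of that level (-0.46 ± 0.09, adjusted p = 0.00638, edgeR). Aldoa, the aldolase of muscle and most tissues, had 167 and 181 CPM at DIV3 against 170 and 183 CPM at DIV1, so that the groups overlapped (-0.02 ± 0.12). Gpi1, which turns glucose 6-phosphate into fructose 6-phosphate, had 119 and 128 CPM against 146 and 158 CPM (-0.30 ± 0.09, adjusted p = 0.0351, edgeR). Tpi1, which interconverts the triose phosphates, had 116 and 136 CPM against 159 and 163 CPM without passing (-0.36 ± 0.12, adjusted p = 0.0587, edgeR). The call on Gpi1 was lost without any 1 of the 4 wild-type libraries (adjusted p up to 0.247) and that on Aldoc without either wild-type DIV1 library or DIV3 replicate 1 (up to 0.0746).

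In the lower part, where ATP is made, 1 of 6 genes passed, with a rise, while 19.8% of all genes tested rose and 16.4% fell. Pgam1 (chromosome 19), the phosphoglycerate mutase, had 70.1 and 68.9 CPM at DIV3, against 59.9 and 57.3 CPM at DIV1 (log2 fold change 0.25 ± 0.07 SE, adjusted p = 0.0293, edgeR). That call was lost when any 1 of the 4 wild-type libraries was left out (adjusted p up to 0.235). Gapdh had 588 and 664 CPM at DIV3, against 732 and 802 CPM at DIV1 (-0.29 ± 0.14, adjusted p = 0.140, edgeR). Pkm had 708 and 785 CPM over all its transcripts, against 797 and 857 CPM (-0.15 ± 0.11, adjusted p = 0.328, edgeR). For both, each DIV3 library lay below each DIV1 library, but the difference did not pass. Pgk1, which makes the first ATP of the pathway, had 128 and 131 CPM at DIV3, against 126 and 130.4 CPM at DIV1. The enolases were at 217 and 242 CPM at DIV3 against 197 and 208 CPM at DIV1 for Eno1, the ubiquitous form (0.18 ± 0.14). Eno2, the neuron-specific enolase, was at 34.4 and 38.9 CPM at DIV3 against 31.2 and 36.6 CPM at DIV1 (0.11 ± 0.13, adjusted p = 0.545, edgeR), with overlapping groups, while 7 of 8 neuronal marker genes rose. Pseudogenes and retrocopies named after these genes held little of the signal, at most 3.08% of the member's count, for Pgam1-ps2.

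At the branch to lactate, Ldha rose. Ldha (chromosome 7), the lactate dehydrogenase subunit that favours lactate formation, had 244 and 278 CPM at DIV3, against 191 and 199 CPM at DIV1 (log2 fold change 0.42 ± 0.08 SE, adjusted p = 0.00891, edgeR). The call was lost without either wild-type DIV1 library or without DIV3 replicate 2 (adjusted p up to 0.0956). Ldhb, the subunit that favours pyruvate formation, had 175 and 195 CPM at DIV3, against 222 and 239 CPM at DIV1, and did not pass (-0.32 ± 0.16, adjusted p = 0.168, edgeR). Slc16a1, the lactate transporter MCT1, had 37.7 and 35.6 CPM at DIV3 and 48.7 and 43.1 CPM at DIV1 (-0.33 ± 0.11, adjusted p = 0.0544, edgeR). Slc16a3 stayed between 1.16 and 1.31 CPM in the 4 wild-type libraries. Of the remaining transporters of this family, Slc16a7, which encodes MCT2, the form of neurons, had 66.5 and 58.0 CPM at DIV3, against 22.1 and 20.6 CPM at DIV1, and rose by 1.54 ± 0.14 on the log2 scale (adjusted p = 0.00042, edgeR).

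The bifunctional enzymes that set the level of fructose 2,6-bisphosphate, the strongest activator of phosphofructokinase, were both above their DIV1 levels. Pfkfb3 (chromosome 2), the isoform with high kinase activity, had 140.0 and 142 CPM at DIV3, against 93.5 and 94.0 CPM at DIV1, and rose 1.51-fold (log2 fold change 0.59 ± 0.11 SE, adjusted p = 0.0070, edgeR). Its call was lost without either wild-type DIV1 library (adjusted p up to 0.0622). Pfkfb2, the heart-type isoform, had 48.7 and 42.5 CPM at DIV3, against 36.3 and 38.3 CPM at DIV1, and did not pass (0.29 ± 0.17, adjusted p = 0.223, edgeR). Among Pfkfb3 transcripts, Pfkfb3-201 held 65.1% and 63.5% of the gene's counts at DIV3, against 43.3% and 38.9% at DIV1, and Pfkfb3-206 held 23.3% and 26.9%, against 43.4% and 52.6%. The groups did not overlap, but the isoform test of the gene did not pass (adjusted p = 1, edgeR diffSpliceDGE).

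At the entry of pyruvate into mitochondria, 2 subunits of the dehydrogenase rose, and the kinases that inhibit it moved in opposite directions. Over all genes tested, 19.8% rose and 16.4% fell. Pdha1 (chromosome X), the catalytic subunit that the kinases phosphorylate, had 195 CPM in both DIV3 libraries, against 148 and 142 CPM at DIV1 (log2 fold change 0.43 ± 0.07 SE, adjusted p = 0.00405, edgeR). Dlat, the acetyltransferase core, had 59.0 and 61.5 CPM against 53.0 and 48.5 CPM (0.25 ± 0.08, adjusted p = 0.0457, edgeR), while Pdhb, the partner of Pdha1, had 98.8 and 106 CPM against 101 and 104 CPM, with overlapping groups. Pdk1 (chromosome 2), a kinase induced by HIF, had 41.7 and 38.3 CPM at DIV3, against 22.7 and 23.1 CPM at DIV1, and rose 1.75-fold (0.80 ± 0.11, adjusted p = 0.00186, edgeR). Pdk3 (chromosome X) had 12.2 and 13.6 CPM at DIV3, against 20.5 and 21.4 CPM at DIV1, and fell to 0.615 of that level (-0.70 ± 0.13, adjusted p = 0.00601, edgeR). Pdk2, the kinase with the widest expression, was at 14.6 and 15.5 CPM against 17.4 and 16.3 CPM and did not pass (-0.16 ± 0.13). The call on Dlat was lost without any 1 of the 4 wild-type libraries (adjusted p up to 0.306), that on Pdk3 without DIV1 replicate 2 or DIV3 replicate 1 (up to 0.0601), and that on Pdha1 without DIV1 replicate 2 (0.0664).

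Among 4 classical targets of HIF outside glycolysis, Egln3 and Bnip3 rose, as did 19.8% of all genes tested. Egln3 (chromosome 12, 54178981 to 54203860), an oxygen-dependent prolyl hydroxylase that marks HIF for destruction and is itself induced by it, had 13.2 and 12.7 CPM at DIV3, against 4.81 and 4.05 CPM at DIV1. It had the largest change of the 33 genes, 2.92-fold (log2 fold change 1.55 ± 0.14 SE, adjusted p = 0.00037, edgeR). Bnip3 (chromosome 7), a mitochondrial protein of mitophagy and cell death, had 34.9 and 37.6 CPM at DIV3, against 24.6 and 21.3 CPM at DIV1 (0.66 ± 0.14, adjusted p = 0.0109, edgeR), and its call was lost without DIV1 replicate 2 or DIV3 replicate 2 (adjusted p up to 0.0971). P4ha1, a collagen prolyl hydroxylase, had 26.6 and 29.6 CPM at DIV3 and 23.2 and 22.02 CPM at DIV1, without overlap and without passing (0.31 ± 0.11, adjusted p = 0.0578, edgeR). Vegfa, the vascular growth factor, had 33.3 and 25.4 CPM at DIV3 and 31.6 and 33.6 CPM at DIV1, so that the groups overlapped (-0.15 ± 0.23). The oxygen tension of the cultures is not given in the sources used here.

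Promoters of Egln3, Bnip3, Pdk1 and Ldha, which rose at DIV3 and are known HIF targets, are shown with the core of the hypoxia response element in capitals (ACGTG or GCGTG on either strand, so CACGT and CACGC also count, and CACGTG counts once on each strand). The windows run over 300 bases, of which 250 lie before the gene start and 50 after it, in the RefSeq promoter table of GRCm38.p6, and each is written on the strand of its gene.
Egln3 promoter, chr12:54203825-54204124, minus strand: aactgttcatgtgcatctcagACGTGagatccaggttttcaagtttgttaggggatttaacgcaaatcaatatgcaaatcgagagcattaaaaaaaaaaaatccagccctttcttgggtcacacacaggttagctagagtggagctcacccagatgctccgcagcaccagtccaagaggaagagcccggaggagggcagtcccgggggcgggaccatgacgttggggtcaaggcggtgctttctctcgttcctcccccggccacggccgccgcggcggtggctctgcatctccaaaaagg
Bnip3 promoter, chr7:138909457-138909756, minus strand: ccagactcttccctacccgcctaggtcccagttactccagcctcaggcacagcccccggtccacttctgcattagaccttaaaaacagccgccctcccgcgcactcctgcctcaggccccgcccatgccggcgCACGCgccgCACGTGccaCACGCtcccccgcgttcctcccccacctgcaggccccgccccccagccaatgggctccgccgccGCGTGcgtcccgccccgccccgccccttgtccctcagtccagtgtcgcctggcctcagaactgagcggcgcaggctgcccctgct
Pdk1 promoter, chr2:71872974-71873273, plus strand: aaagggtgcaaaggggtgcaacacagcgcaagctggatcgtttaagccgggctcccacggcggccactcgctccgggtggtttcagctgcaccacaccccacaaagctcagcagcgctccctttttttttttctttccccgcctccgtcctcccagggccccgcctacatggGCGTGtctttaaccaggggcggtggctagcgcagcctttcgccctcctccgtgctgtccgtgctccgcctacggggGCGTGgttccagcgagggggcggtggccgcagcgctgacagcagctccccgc
Ldha promoter, chr7:46845554-46845853, plus strand: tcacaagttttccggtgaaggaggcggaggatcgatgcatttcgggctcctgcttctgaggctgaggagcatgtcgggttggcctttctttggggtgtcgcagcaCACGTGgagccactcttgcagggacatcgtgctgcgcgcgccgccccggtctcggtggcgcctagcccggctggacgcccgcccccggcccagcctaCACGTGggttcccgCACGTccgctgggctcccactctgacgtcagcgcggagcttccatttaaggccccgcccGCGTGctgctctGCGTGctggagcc
The windows hold 1 match in Egln3, 5 in Bnip3, 2 in Pdk1 and 7 in Ldha. Of the 33 genes, 32 had a window, and 24 of these (75%) held a match, against 62.4% of the 11588 windows of genes tested and 43.8% of all 27025 windows. Windows of Hk1, Vegfa and Dlat held none, and that of Hk2, which fell, held 2. A match describes only the letters of the window.

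The M1 form made up a larger share of Pkm transcripts in both DIV3 libraries than in any DIV1 library, while the total of Pkm did not pass the test. Per length, M1 made up 37.7% and 37.0% of M1 and M2 together at DIV3, against 23.6% and 22.9% in wild type at DIV1, a difference of 14.1 percentage points (means of 37.3% ± 0.51 and 23.3% ± 0.48, SD, n = 2 each). The KO-labelled libraries, at 24.1% and 25.2%, lay 1.38 points above wild type at DIV1 on average. These shares leave out the other Pkm transcripts. Of all Pkm counts, M1 held 28.8% and 27.7% at DIV3, 18.0% and 18.6% in the KO-labelled libraries, and 17.2% and 16.8% in wild type at DIV1. The M1 transcript, with the exon shown first above, had 214 and 220.4 TPM at DIV3, against 146 and 152 TPM at DIV1, and the M2 transcript had 354 and 375 TPM against 474 and 511 TPM. M1 was thus higher and M2 lower in both DIV3 libraries, and M2 remained the more abundant form in all 6 libraries. An exact permutation test of the M1 share over 2 against 2 libraries gave p = 0.333 in each comparison, two-sided, the smallest it can give. Among the 23 of the 33 genes with an isoform test, none was called in either comparison (1 at DIV3 and 3 in the KO-labelled libraries at an unadjusted p under 0.05, edgeR), while 0.458% of all genes tested were called at DIV3 and 0.562% in the KO-labelled libraries. For Pkm at DIV3 the outcome depended on the test: the adjusted p was 1 with edgeR diffSpliceDGE and the Simes method, 0.0716 with its F test, and 0.0406 with limma diffSplice. None of these tests carries the error of dividing shared reads among transcripts. The M1 and M2 shares count reads over whole transcripts, so they do not rest on the 2 exons alone.

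**Figure D3:**
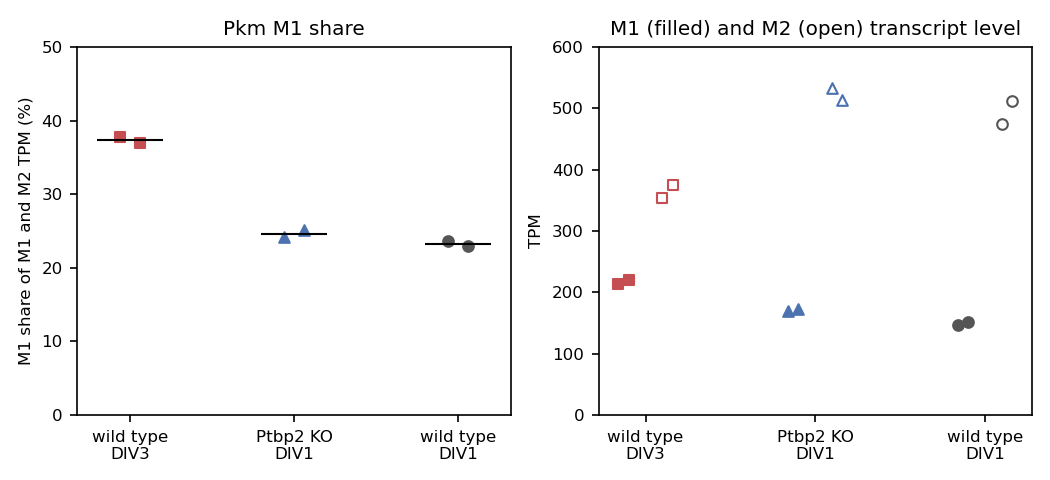
Pkm forms in each library of wild type at DIV3, libraries labelled Ptbp2 KO at DIV1 and wild type at DIV1. On the left, the M1 share of M1 and M2 TPM in percent, with lines at group means; on the right, TPM of M1 (filled) and M2 (open). Both DIV3 libraries lie at or above 37.0% and all DIV1 libraries at or below 25.2%.

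All 9 listed regulators of the Pkm exons had both DIV3 libraries below both wild-type DIV1 libraries (38.9% of all genes tested). The list was not split by whether a regulator favours the M1 or the M2 exon, so the 9 are not read as 1 kind of action. By the test, 5 of the 9 fell and none rose (16.4% and 19.8% of all genes tested), with a median log2 fold change of -0.39. Ptbp2, Ptbp3, Srsf3 and Rbm4 did not pass. The part of the 9 in the M1 share was not tested. Ptbp1, the paralog of Ptbp2 that is abundant in progenitors, had 113 and 106 CPM at DIV3, against 167 and 158 CPM at DIV1 (-0.57 ± 0.09 SE, adjusted p = 0.00276, edgeR). Nek2, a kinase of mitosis that also acts on this splicing choice, had 18.4 and 16.5 CPM against 38.6 and 36.5 CPM (-1.11 ± 0.11, adjusted p = 0.000585, edgeR). Raver1, a cofactor of PTBP1, had 66.4 and 63.9 CPM at DIV3, against 91.1 and 89.6 CPM at DIV1 (-0.47 ± 0.08). Hnrnpa1 changed by -0.49 ± 0.10 and Hnrnpa2b1 by -0.39 ± 0.10. Srsf3, the regulator with the highest mean TPM among those that did not pass, had 419 and 464 CPM at DIV3, against 534 and 531 CPM at DIV1, and Ptbp2 had 403 and 382 CPM against 465 and 429 CPM without passing (-0.19 ± 0.09, adjusted p = 0.158, edgeR). In the KO-labelled libraries none of the 9 passed, and Ptbp1, at 154 and 173 CPM, overlapped with wild type at DIV1.

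Ratios of isoenzymes within a library need no scaling between libraries, but they keep the length trend of each library. In TPM they separated the DIV3 from the wild-type DIV1 libraries for all 11 pairs, by widely different amounts. Single genes often did so too: of all genes tested, 37.3% had both DIV3 libraries above both DIV1 libraries and 38.9% below. The share over other pairs of genes was not computed, and some of the 11 share a gene. In CPM, without length scaling, the groups overlapped for Eno2 over Eno1. Hk1 exceeded Hk2 by 20.8 and 17.0 times in TPM at DIV3, against 2.69 and 3.57 times in the KO-labelled libraries and 4.16 and 3.73 times in wild type at DIV1. The log2 ratio at DIV3 lay 2.26 above wild type at DIV1 in TPM, the largest shift among the 11 pairs, and 2.18 above it from gene CPM. In the KO-labelled libraries it lay 0.34 below wild type at DIV1 in TPM. It lay at 0.048 from gene CPM and at -0.0242 with the length trend removed, so no direction is given for it. Hk2-202, a noncoding transcript of 594 bases, held 4.12% and 9.60% of Hk2 counts at DIV3. It held 20.7% and 10.6% in the KO-labelled libraries and 7.02% and 9.90% in wild type at DIV1. Being short, it weighs more in Hk2 TPM, and in the ranks above, than in the counts. Pdk3 was below Pdk1 at DIV3, with ratios of 0.727 and 0.848, and above it in the KO-labelled libraries, with 3.601 and 2.42, and in wild type at DIV1, with 2.08 and 2.23. Ldhb and Ldha were near parity at DIV3, with Ldhb over Ldha at 0.987 and 0.970, against 2.22 and 1.57 in the KO-labelled libraries and 1.55 and 1.70 in wild type at DIV1. Slc2a3 over Slc2a1 stood at 3.06 and 2.95 at DIV3, 1.11 and 1.56 in the KO-labelled libraries, and 1.64 and 1.56 in wild type at DIV1. Its log2 difference between DIV3 and wild type at DIV1 was 0.91 in TPM and 0.72 with the length trend removed. Aldoa over Aldoc stood at 1.34 and 1.27 at DIV3, 1.10 and 1.08 in the KO-labelled libraries, and 0.927 and 0.998 in wild type at DIV1. The enolase ratio differed least between wild-type groups besides that of Pfkm over Pfkl: Eno2 over Eno1 stood at 0.131 and 0.121 at DIV3, against 0.132 and 0.136 in wild type at DIV1. With 4 libraries a comparison cannot reach an exact permutation p below 0.333, which is what each of the 11 pairs gave at DIV3, two-sided.

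**Figure D4:**
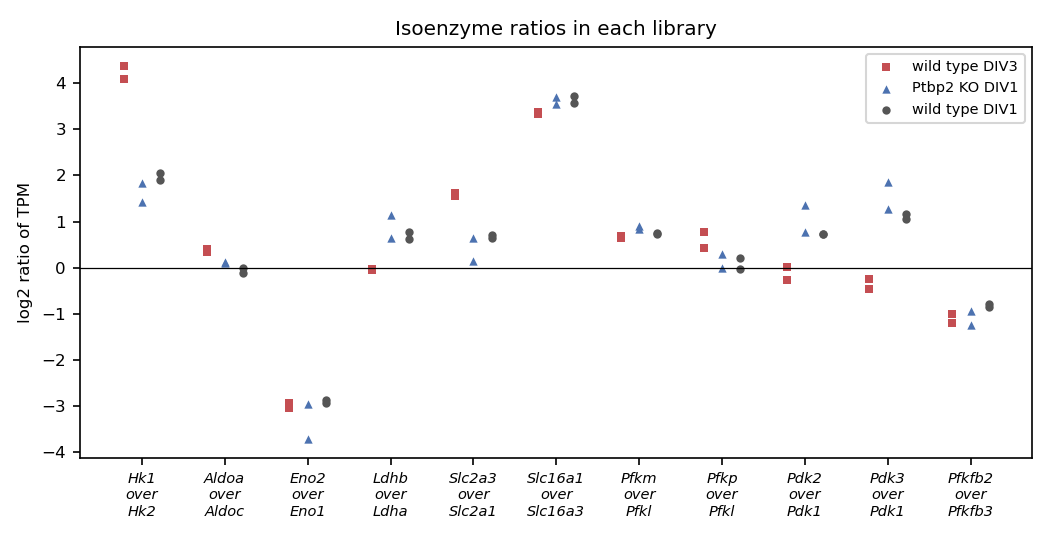
Log2 ratio of TPM for 11 isoenzyme pairs in each library, with wild type at DIV3 as squares, libraries labelled Ptbp2 KO at DIV1 as triangles and wild type at DIV1 as circles. The line at 0 marks equal levels; Hk1 over Hk2 has group means of 4.23 at DIV3, 1.63 in KO-labelled libraries and 1.98 in wild type at DIV1, and Ldhb over Ldha lies at the line at DIV3.

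Other genes of these pathways were listed by role. Of 31 other glycolysis genes, 22 were tested, and 5 (22.7%) rose and 2 (9.1%) fell at DIV3, against 19.8% and 16.4% of all genes tested, with a median log2 fold change of -0.05. Besides Slc16a7, Slc2a13, a transporter of myo-inositol, rose (17.3 and 16.7 CPM at DIV3, against 10.3 and 9.39 CPM at DIV1). Slc2a4, the insulin-responsive glucose transporter GLUT4, fell, with 4.72 and 4.47 CPM at DIV3 against 9.86 and 9.74 CPM at DIV1 (-1.09 ± 0.11, adjusted p = 0.00064, edgeR). Adpgk, an ADP-dependent glucokinase, also fell (-0.44 ± 0.11, adjusted p = 0.0189, edgeR). Tkt, the transketolase of the pentose phosphate pathway, did not pass at 381 and 403 CPM against 414 and 415 CPM.

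Genes around the entry of pyruvate rose in 6 of 13 cases (46.2%) and fell in 1 (7.7%), against 19.8% and 16.4% of all genes tested, with a median of 0.30. They include Mpc1, a subunit of the mitochondrial pyruvate carrier, with 68.3 and 67.5 CPM at DIV3 against 49.9 and 50.04 CPM at DIV1 (0.44 ± 0.10, adjusted p = 0.014, edgeR). Pdp1, the phosphatase that reverses the action of the kinases, had 82.7 and 83.8 CPM against 67.2 and 63.6 CPM (0.35 ± 0.08, adjusted p = 0.0141, edgeR). Cs, citrate synthase, had 355 and 353 CPM against 291 and 283 CPM (0.30 ± 0.07, adjusted p = 0.0192, edgeR), and Me3, a mitochondrial malic enzyme, had 1.07 and 0.969 CPM against 0.290 and 0.412 CPM. Dld, the third enzyme of the complex, did not pass (0.02 ± 0.07).

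Of 31 tested genes of the hypoxia pathway, 6 (19.4%) rose and 3 (9.7%) fell, against 19.8% and 16.4% of all genes tested, with a median of 0.04. Lox, a collagen cross-linking enzyme, had 3.11 and 3.58 CPM at DIV3, against 0.290 and 0.275 CPM at DIV1 (3.55 ± 0.22, adjusted p = 0.000144, edgeR). Ndrg1 had 178 and 183 CPM at DIV3 against 91.5 and 91.3 CPM at DIV1, and Bnip3l, the relative of Bnip3, had 174 and 179.6 CPM against 129 and 119.6 CPM. Hif3a, a HIF subunit with inhibitory splice forms, fell, with 2.12 and 2.23 CPM at DIV3 against 5.88 and 5.83 CPM at DIV1. Hif1a was among the 22 that did not pass, as was Ddit4, at 171 CPM in both DIV3 libraries against 187 and 177 CPM. Of 7 markers of pericytes and fibroblasts, 5 rose at DIV3, with summed levels of 27.8 to 28.1 TPM against 10.2 to 10.5 TPM. Their part in the rise of Lox was not tested.

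Among 13 transcriptional regulators of glycolysis, 5 (38.5%) rose and 1 (7.7%) fell, against 19.8% and 16.4% of all genes tested, with a median of 0.25. Myc had 22.1 and 22.8 CPM at DIV3, against 15.6 CPM in both DIV1 libraries (0.52 ± 0.10, adjusted p = 0.00724, edgeR). Mycn had 172 and 150.4 CPM against 116 and 107 CPM, and Ppargc1a, a coactivator of mitochondrial genes, had 23.4 and 21.8 CPM against 13.9 and 13.8 CPM. Foxk2 rose too (0.34 ± 0.07, adjusted p = 0.00863, edgeR), and Trp53, the gene of p53, fell (-0.71 ± 0.07, adjusted p = 0.00054, edgeR). Max, the partner of MYC, did not pass. Astrocyte markers were low but rose in 4 of 6 cases, with summed levels of 43.7 to 50.2 TPM at DIV3 against 22.2 to 23.8 TPM at DIV1, with S100b and Gjb6 under 0.5 TPM in every library. Their part in the changes of the 33 genes was not tested.

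The second comparison asked whether neurons labelled Ptbp2 KO differed from wild type at DIV1. None of the 33 genes passed, in either direction, with edgeR (0.0% of all genes tested were higher and 0.0% lower) or with DESeq2. At an unadjusted p under 0.05, 4 of the 33 and 2475 of the 16847 genes tested lay below the threshold in edgeR, and DESeq2 called 45 genes higher and 163 lower over all genes. Both KO-labelled libraries lay above both wild-type libraries for 13 of the 33 genes (26.9% of all genes tested) and below them for 5 (26.2% of all genes tested). The 13 were Gapdh, Pkm, Eno1, Aldoa, Tpi1, Gpi1, Pgk1, Pgam1, Ldha, Slc2a1, Slc16a3, Pdk3 and Pdhb, which take in 5 of the 6 genes of lower glycolysis. The 5 were Hk1, Hk2, Pfkp, Pfkfb2 and Pfkfb3.

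The sizes were small and the KO-labelled replicates were unequal. Gapdh had 1132 and 896 CPM in the KO-labelled libraries, against 732 and 802 CPM in wild type at DIV1 (log2 fold change 0.40 ± 0.14 SE, adjusted p = 0.333, edgeR). Eno1 had 291 and 217 CPM in the KO-labelled libraries, against 197 and 208 CPM (0.32 ± 0.14, adjusted p = 0.333, edgeR), and Aldoa had 241 and 193 CPM, against 170 and 183 CPM (0.30 ± 0.12, adjusted p = 0.333, edgeR). In each, replicate 1 lay farther above wild type than replicate 2 did. Ldhb, at 334 and 234 CPM against 222 and 239 CPM, had replicate 2 within the wild-type range. In the other direction, Pfkfb2 had 23.4 and 33.5 CPM in the KO-labelled libraries, against 36.3 and 38.3 CPM (-0.39 ± 0.17, adjusted p = 0.333, edgeR). Pfkfb2-205, annotated for nonsense-mediated decay, held 24.8% and 33.3% of those counts, against 31.9% and 36.5%. Pfkfb2-209, annotated as retaining an intron, held 31.9% and 25.8%, against 22.8% and 30.8%. The coding transcripts of Pfkfb2 alone were not tested. Pfkp had 40.8 and 50.1 CPM against 54.3 and 58.9 CPM (-0.32 ± 0.16, adjusted p = 0.348, edgeR), and here too replicate 1 lay farther from wild type. Hk1 and Hk2, which had the largest changes among the glycolytic enzymes at DIV3, had log2 fold changes of -0.05 ± 0.07 and -0.10 ± 0.10 in the KO-labelled libraries, and Egln3 had -0.12 ± 0.14. Slc2a3 had 44.9 and 62.9 CPM in the KO-labelled libraries, on either side of the 53.1 and 55.1 CPM of wild type at DIV1. None of the tested genes of the 5 lists of other pathway genes passed either. The gene of each list with the highest mean TPM over all 6 libraries had a log2 fold change of 0.25 ± 0.11 (Tkt), -0.10 ± 0.10 (Mpc1), 0.11 ± 0.08 (Ddit4), 0.09 ± 0.10 (Hnrnpa2b1) and -0.27 ± 0.13 (Mycn).

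Without KO-labelled replicate 2, 14 of the 33 genes passed, with 9 higher, among them Gapdh, Eno1, Aldoa, Ldhb and Pdk3, and 5 lower, among them Pfkfb2, Pfkfb3 and Vegfa. Over all genes that fit called 2556 higher and 2993 lower. Without KO-labelled replicate 1, none of the 33 passed, and 13 genes were called higher and 30 lower over all genes. The transcript tables set the same library apart: Pfkfb3-221, a transcript annotated as subject to nonsense-mediated decay, held 43.5% and 1.43% of Pfkfb3 counts in the KO-labelled libraries, against 0.711% and 0% in wild type at DIV1. Hk1-201 held 23.8% and 3.34% of Hk1 counts, against 2.89% and 1.48%. Slc2a1-204, also annotated for decay, held 65.0% and 38.5% of Slc2a1 counts, against 38.5% and 35.8%. These transcripts were chosen after their values were seen, and the isoform tests of Pfkfb3 and Hk1 did not pass (adjusted p = 0.721 and 0.438, edgeR diffSpliceDGE).

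The direction of the differences went with transcript length. The 13 genes above wild type had a median length of 1807 bases (1353 to 2658), and the 5 below it had 4615 bases (3433 to 5130), against 2680.3 bases over all genes tested. Over all genes tested, the Spearman correlation of the log2 fold change with length was -0.467, a description over genes that share libraries, and the median log2 fold change was 0.22 in the group with the shortest transcripts, of 5 groups of equal size, and -0.19 in that with the longest. At DIV3 the correlation was 0.21, with medians of -0.16 and 0.15. With the length trend of each library removed, the log2 fold change of Gapdh in the KO-labelled libraries was 0.23 ± 0.08 (adjusted p = 0.352, edgeR), that of Eno1 0.21 ± 0.09 and that of Pfkp -0.17 ± 0.12, and none of the 33 passed. At DIV3, all 16 calls held with the trend removed, among them Hk1 (0.98 ± 0.06), Hk2 (-1.26 ± 0.09) and Egln3 (1.57 ± 0.13), and Pfkm, Tpi1, Slc16a1 and P4ha1 passed as well.

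**Figure D5:**
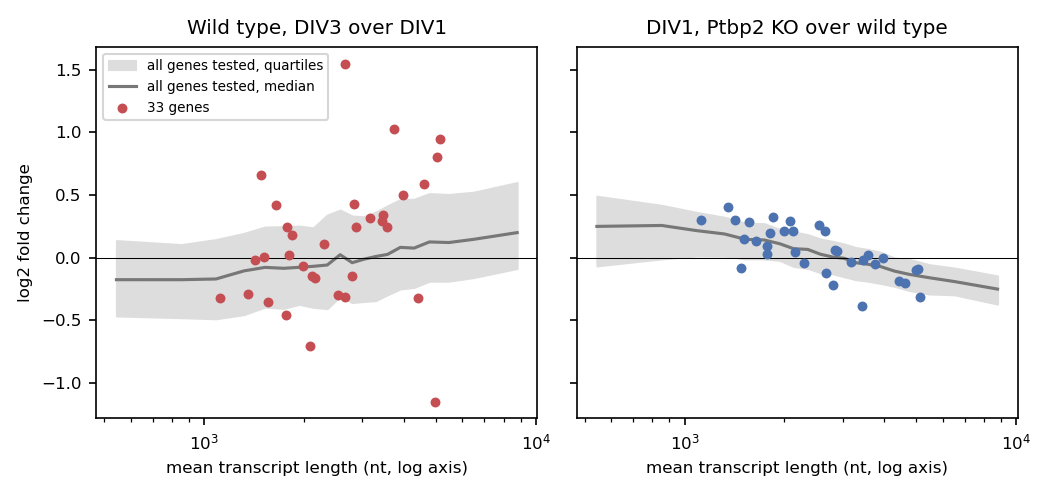
Log2 fold change of the 33 genes (points) against mean transcript length on a log axis, for wild type at DIV3 over wild type at DIV1 (left) and for libraries labelled Ptbp2 KO over wild type at DIV1 (right). The grey line is the median and the band the quartiles of all genes tested in bins of length; on the right most points follow the falling grey line, and on the left Hk2 and Egln3 lie far outside the band.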

How the data were processed

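Expected counts per gene and per transcript, which need not be whole, were deposited by the authors; per the submitters' processing notes they come from STAR and RSEM on GRCm38 (mm10), with versions and annotation not given in the sources used here. Per the labels' protocols, DNase-treated total RNA went into stranded total RNA libraries. Symbols, lengths and coordinates came from GENCODE M21. Counts were rounded, filtered (filterByExpr, minimum count 10), TMM-scaled and tested with edgeR 4.0.16 (R 4.3.3) quasi-likelihood F tests, all 6 libraries in 1 fit with 3 residual degrees of freedom, and Benjamini-Hochberg adjustment over 16847 genes. SE is the log2 fold change over the root of F. TPM was computed from transcript counts and annotated lengths. Isoform usage was tested with diffSpliceDGE on transcripts with a share of at least 5%, calling differences of at least 10 points. Alternatives were DESeq2 1.42.0, RLE factors, library totals, no filter, a length offset, a replicate block, added gene copies, 4 libraries alone and libraries left out. The members, lists and tests were chosen with earlier results of these data known. Named beside the 33 genes are Ptbp2, Ptbp1 and, per list and comparison, up to 4 called genes, by smallest adjusted p, and the gene not called with the highest mean TPM over the 6 libraries. Pgm2 and Hif1a stand in 2 lists each.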

Additional observations from a re-analysis of the deposited data

How the results depend on the processing

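At DIV3, the count of the 33 genes called, 16 with all libraries, ran between 12 and 24 under other scalings, filters, tools and designs, and between 5 and 25 with libraries left out in turn. Of 495 gene and setting values, 406 kept direction and side of the threshold, 44 lost the call and 45 gained it; 16 changed sign in 6 genes, none of them called. In the KO-labelled libraries, 480 of 495 values kept their side, 15 gained a call and 37 changed sign in 16 genes. The count called, 0, became 1 with no filter (Gapdh) and lay between 0 and 14 with libraries left out. Over all genes, the KO-labelled calls, 0 with all libraries, were 508 higher and 553 lower with no filter, 8 and 17 with the length trend removed, 45 and 163 with DESeq2, and up to 2556 and 2993 with libraries left out. DIV3 calls over all genes lay between 1609 and 4527 higher and between 1134 and 4188 lower with libraries left out. Isoform calls over all genes ran between 21 and 126 at DIV3 (35 in the main test) and between 23 and 699 in the KO-labelled libraries (43). The Pkm isoform test at DIV3 passed with limma diffSplice (adjusted p = 0.0406); the cause was not tested. The Hk1 over Hk2 ratio in the KO-labelled libraries, -0.34 on the log2 scale, was 0.048 from gene CPM without length scaling and -0.0242 with the length trend removed, so its direction depends on the scaling; it lay between -0.55 and -0.14 with libraries left out. Same-numbered replicates deviated together in part between the 2 wild-type groups (correlation 0.375). The correlation with the KO-labelled libraries was 0.038 for wild type at DIV1 and -0.094 for DIV3. Whether the numbers pair the libraries is not settled by these values. With the replicate block, 12 of the 33 genes were called at DIV3, without Gpi1, Pgam1, Slc2a1 and Dlat, and 0 in the KO-labelled libraries; the adjusted p of Pkm isoforms stayed at 1 in both, with the block. A fit with a lone library in a group assumes that it varies like the others.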
